A study of Homo sapiens with 6 samples.

Results

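The 53 genes described here serve the endoplasmic reticulum (ER), where secreted and membrane proteins are inserted, folded and glycosylated, and the stress response that protects it. They are a set of ER stress, chaperone and translocon genes among 21743 genes with a probe on the array, and every probe whose transcript belongs to a member in the RefSeq gene table was used, 65 probes in all. By role they are 11 chaperones and chaperone helpers, 4 protein disulfide isomerases, 5 stress sensors and transcription factors, 7 targets of the stress response, 7 genes of ER-associated degradation (ERAD), 10 translocon genes, 4 signal peptidase subunits and 5 oligosaccharyltransferase subunits.

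MDA-MB-231 cells, an established human breast cancer line, were transfected with a precursor of hsa-miR-205-5p, a precursor of hsa-miR-214-3p or a scrambled negative control, the precursors at 30 nM, and total RNA was taken at 72 h. Each of the 3 groups had 2 arrays, all 6 of them on the same slide of an Agilent human gene expression design read in 1 colour, and the description of the experiment asks what each precursor does to transcript levels. Nothing in the labels says that the arrays of a group came from separate cultures, so the p-values measure only the spread between these samples, which may be technical. Both precursors were set against the same control arrays, and they were also set against each other.

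ER chaperones such as the product of HSPA5 bind unfolded chains, and when such chains pile up, sensor proteins in the ER membrane encoded by ERN1, EIF2AK3 and ATF6 start the unfolded protein response. That response splices XBP1 transcripts, slows translation while ATF4 is made, and raises transcripts of chaperones, isomerases and ERAD genes. The translocon is the membrane channel through which new chains enter the ER, with signal peptidase and oligosaccharyltransferase working beside it. In cancer cells the same response is known for helping cells bear a high load of secreted protein and for switching on DDIT3, a factor tied to cell death when stress lasts.

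A precursor is a short RNA from which cells make the mature miRNA, and the mature strand pairs with transcripts mainly through its seed, bases 2 to 8. The mature sequences from RefSeq (GRCh38.p14) are shown with the seed in capitals because they name what the cells received. Their seeds differ, and both are 22 bases long. The hsa-miR-205-5p strand lies at chr1:209432166-209432187 on the plus strand and the hsa-miR-214-3p strand at chr1:172138816-172138837 on the minus strand.
hsa-miR-205-5p: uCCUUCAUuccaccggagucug
hsa-miR-214-3p: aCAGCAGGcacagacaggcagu

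Values are normalized log2 signals: the background-subtracted spot intensity on a log2 scale, minus the 75th percentile of its array, so that 0 is that percentile and a step of 1 is a 2-fold difference. A spot is said to be detected where the scanner software marks it well above background, which held for 35.4% to 42.2% of the spots on an array, and 0 spots were saturated. To be tested, a probe had to be detected on both arrays of a group. Of the 53 members, 50 were tested, and 48 of these were detected on all 6 arrays. The other 2, EDEM1 and DDIT3, were detected with hsa-miR-205-5p only on replicate 1. EIF2AK3, ERN1 and SEC62 were not tested. Where a gene had several probes, the probe with the highest mean signal stands for it. Differences were tested with limma on all 6 arrays, and p-values were adjusted by Benjamini-Hochberg over all tested probes. A gene is called lower or higher when its adjusted p was under 0.05 and its change at least 2-fold. A gene that met the adjusted p alone is said to have passed the test. The small number of arrays limits the precision.

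With hsa-miR-205-5p, 7 of the 50 tested members were lower than in the scrambled control: SSR2, PDIA6, RPN1, HYOU1, SEC61A1, DDIT3 and EDEM1. They make up parts of the translocon, a disulfide isomerase, a glycosylation subunit, a chaperone, a stress factor and an ERAD protein. The folds of DDIT3 and EDEM1 use a signal that was not detected, and in a fit on probes detected on all 6 arrays the lower calls were 5, or 10.4% of the members against 7.26% of all genes. CHAC1 and SPCS3, an enzyme gene induced by stress and a signal peptidase subunit, were higher. The lower calls are 14% of the members against 7.98% of all 11974 genes tested, and the higher calls 4% against 4.78%. With arrays scaled to their median the lower calls were 16% of the members and 15.7% of all genes, so the excess of lower members depends on the scaling. Shares of this kind describe the set, and the difference between them was not tested. By adjusted p alone, 7 members passed below 0 and 7 above, against 11.3% and 9.81% of all genes, and 36 members did not pass. The 5 that passed above 0 at less than 2-fold were HSP90B1, SDF2L1, XBP1, TRIB3 and SEC63. At an unadjusted p under 0.05, limma put 20% of the members below 0 and 30% above, against 18.9% and 20.6% of all genes. The t-test of the study's methods put 6% of the members below 0 and 28% above, against 11% and 11.9% of all genes. The median log2 fold change was 0.21 over the members and 0.08 over all genes. Without hsa-miR-205-5p replicate 2 limma called 0% of all genes either way, so all 9 calls ended along with every other call of this comparison. The values of SSR2 (−3.16), CHAC1 (1.76), PDIA6 (−1.66), HYOU1 (−1.44), RPN1 (−1.35) and SPCS3 (1.24) stayed near those of the full fit, and those of DDIT3 (−1.17), SEC61A1 (−0.89) and EDEM1 (−0.80) were smaller. Without either hsa-miR-214-3p array, which does not enter this difference, the folds stayed the same, the calls of DDIT3, EDEM1, HYOU1, PDIA6, SEC61A1 and SPCS3 ended, and 3.38% and 1.77% of all genes were called lower and higher.

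With hsa-miR-214-3p, limma called 0 members lower and 0 higher than the scrambled control, against 2.03% and 1.09% of all genes, and all 50 tested members missed the adjusted p. By adjusted p alone, 2.09% of all genes passed below 0 and 1.21% above. These shares over all genes were not stable: limma called 0% of all genes in either direction with the replicate number fitted as a block, in a fit on the arrays compared alone, and on leaving out any array but scrambled replicate 2. At an unadjusted p under 0.05, limma put 3 members below 0 and 6 above, or 6% and 12% against 13.4% and 10.8% of all genes. Only SSR2 among these differed by at least 2-fold, where all genes had 4.13% lower and 2.66% higher. The t-test named in the study's methods put 1 member below 0 and 5 above, or 2% and 10% against 9.5% and 7.99% of all genes. At 2-fold or more it had 0 members either way, against 2.94% and 1.65% of all genes. The median log2 fold change was 0.23 over the members and −0.01 over all genes. Without scrambled replicate 2, by contrast, CHAC1 was called lower (−1.07), and HYOU1 (1.06), PDIA3 (1.29) and SSR2 (1.73) were called higher. These are 2% and 6% of the members against 4.14% and 5.47% of all genes in that fit.

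Set directly against hsa-miR-214-3p, hsa-miR-205-5p gave 8 lower members, the same 7 genes and SESN2, and the same 2 higher members. The lower calls are 16% of the members against 11.3% of all genes, and the higher calls 4% against 9.18%. DDIT3 and EDEM1 rest here too on an undetected signal, and in the fit on probes detected on all 6 arrays the lower calls were 6, or 12.5% of the members against 9.93% of all genes. By adjusted p alone, 10 members passed below 0 and 9 above, against 16% and 17.9% of all genes. DDOST and SSR4 were the further members below 0, and SYVN1, ATF6, XBP1, SPCS2, TRIB3, SEC61B and SEC61G those above. The other 31 members did not pass. The median log2 fold change was 0.05 over the members and 0.12 over all genes. Without hsa-miR-214-3p replicate 2, the calls left were SSR2 and CHAC1, and of all genes 1.55% were lower and 1.17% higher.

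**Figure D1:**
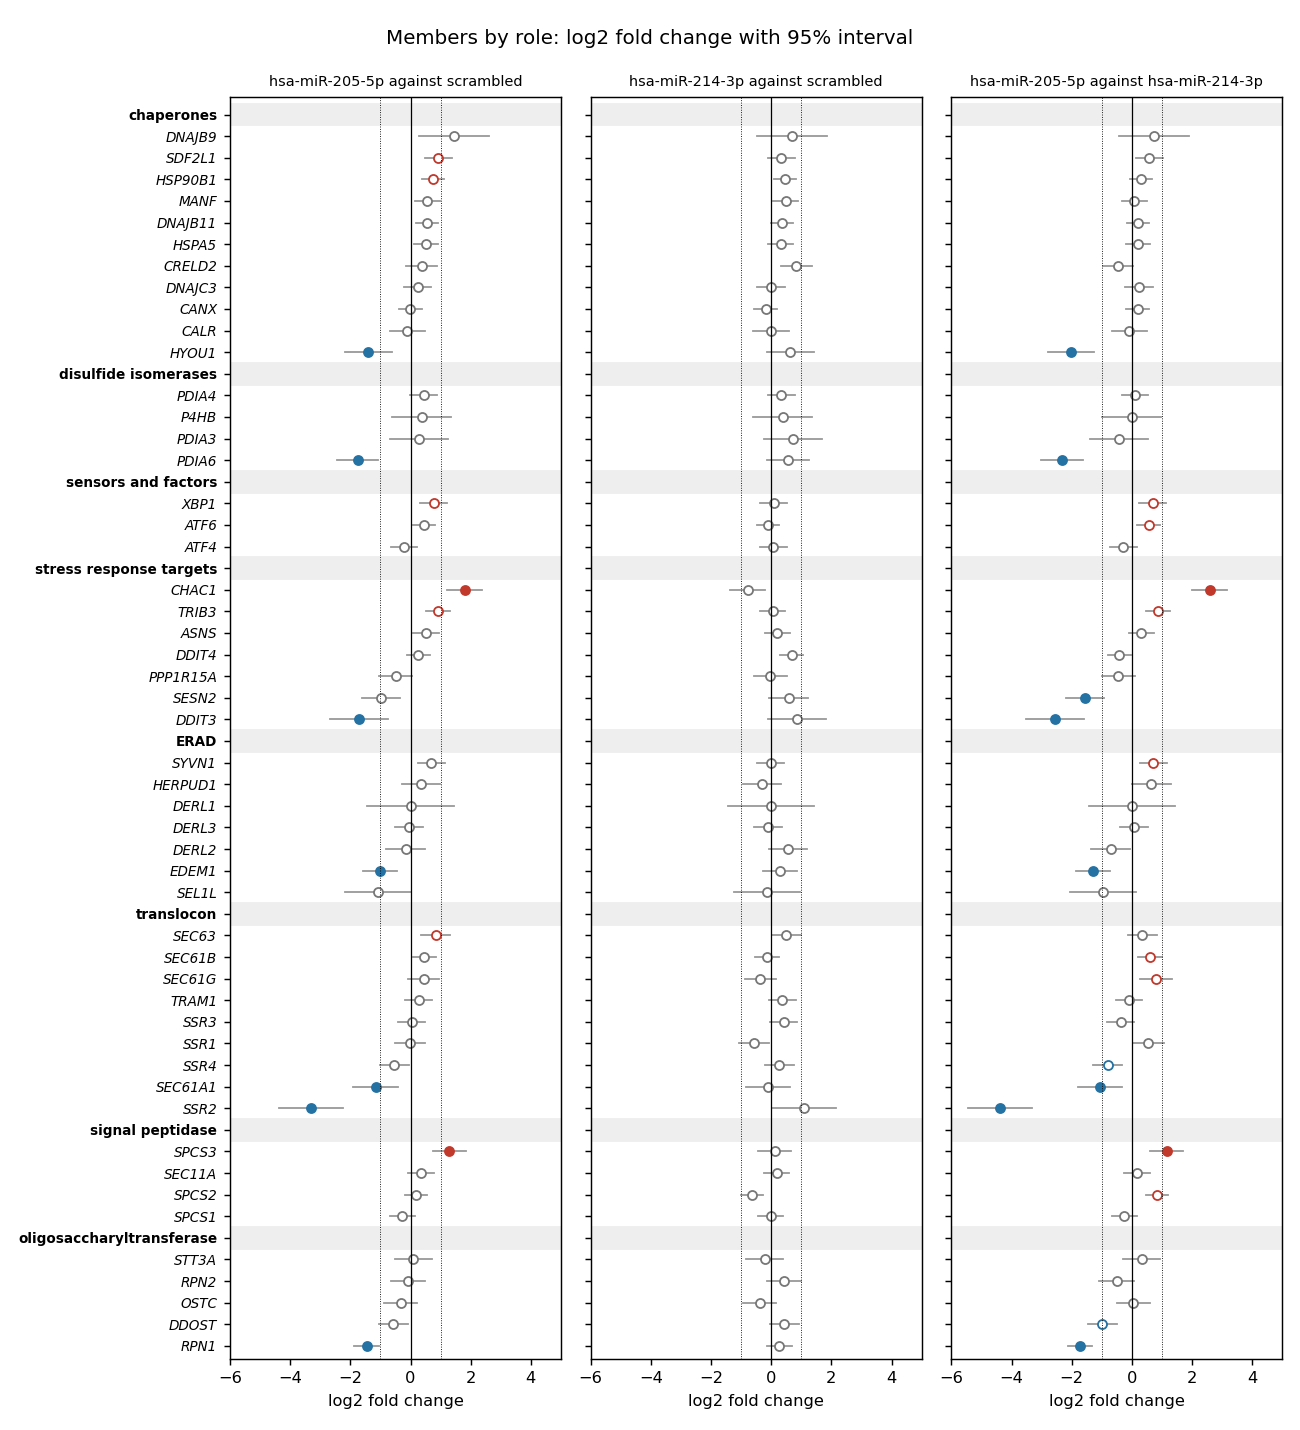
Log2 fold change of the 50 tested members, grouped by role, in the 3 comparisons, with 95% confidence intervals from limma; dotted lines mark a 2-fold change, filled points are called members, coloured open points passed the adjusted p at less than 2-fold, and grey open points did not pass. Called members lie on both sides of 0 in the panels with hsa-miR-205-5p, SSR2 lies farthest below 0 there, and the panel of hsa-miR-214-3p against the scrambled control holds no filled point.

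These directions depend in part on where 0 is set. With arrays scaled to their median in place of the 75th percentile, the median over all genes moved by −0.39 for hsa-miR-205-5p against the scrambled control, by −0.165 for hsa-miR-214-3p and by −0.224 between the precursors. The share of higher genes among all called genes then went from 37.4% to 10.2%, from 35% to 13.7% and from 44.8% to 26.2%. Normexp background correction, which changed the correction and also took the median spot signal in place of the processed signal, moved the median over all genes less, by −0.10, −0.05 and −0.07. With it the genes called lower and higher were 619 and 133, 208 and 37, and 652 and 415, against 956 and 572, 243 and 131, and 1352 and 1099 as tested here. The median over all members for hsa-miR-205-5p turned from 0.21 to −0.18 with median scaling and to −0.04 with normexp. For hsa-miR-214-3p it went from 0.23 to 0.07 with median scaling and to −0.01 with normexp. Between the precursors it went from 0.05 to −0.17 with median scaling, to −0.05 with quantile normalization and to 0.01 with normexp.

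Promoter windows of 300 bases, 250 before the start site and 50 after, were read from the RefSeq table (GRCh38.p14) for 47 of the 53 members, and DERL1, DERL3, PDIA3, RPN1, SPCS1 and TRAM1 had no entry. Letters of 3 known stress response motifs were searched on both strands: the ER stress element (ERSE, CCAAT, any 9 bases, CCACG), the unfolded protein response element (UPRE, TGACGTGG) and the ATF4 site TGATGCAA. The end of the UPRE read on the other strand, CCACG, is also the end of the ERSE, so matches of both can overlap. Over all 35116 windows, 0.0769% held an ERSE, 0.729% a UPRE and 0.866% the ATF4 site. Among the members, CALR, CANX, CRELD2, HSP90B1, HSPA5, PDIA6 and XBP1 held an ERSE, 14.9% of those with a window against 0.0916% of all genes. HYOU1, SEC62, SSR3 and SSR4 held a UPRE, which is 8.51% of members against 0.927% of all genes. CHAC1 and HERPUD1 held the ATF4 site, 4.26% against 1.08%. A match describes letters in the window and is no evidence of binding.

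The windows of 4 members are shown to set a shared motif beside different values: HSPA5 and PDIA6 both carry an ERSE, HYOU1 the UPRE and CHAC1 the ATF4 site, with the match in capitals, written 5′ to 3′ on the strand of the gene. In CHAC1 the match lies on the opposite strand, so the capitals show its complement. The windows are chr9:125241294-125241593 (minus strand) for HSPA5, chr2:10812736-10813035 (minus strand) for PDIA6, chr11:119057156-119057455 (minus strand) for HYOU1 and chr15:40953221-40953520 (plus strand) for CHAC1.
HSPA5: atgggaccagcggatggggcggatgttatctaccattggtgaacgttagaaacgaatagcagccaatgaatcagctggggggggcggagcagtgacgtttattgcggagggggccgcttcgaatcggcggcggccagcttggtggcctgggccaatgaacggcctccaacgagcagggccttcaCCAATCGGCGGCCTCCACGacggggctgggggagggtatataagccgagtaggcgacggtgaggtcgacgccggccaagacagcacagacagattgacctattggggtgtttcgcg
PDIA6: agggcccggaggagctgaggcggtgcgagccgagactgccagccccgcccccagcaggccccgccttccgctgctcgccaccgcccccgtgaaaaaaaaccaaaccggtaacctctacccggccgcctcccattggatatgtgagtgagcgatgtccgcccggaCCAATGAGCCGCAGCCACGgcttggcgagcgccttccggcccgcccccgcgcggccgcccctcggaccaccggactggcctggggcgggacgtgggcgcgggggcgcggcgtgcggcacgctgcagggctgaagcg
HYOU1: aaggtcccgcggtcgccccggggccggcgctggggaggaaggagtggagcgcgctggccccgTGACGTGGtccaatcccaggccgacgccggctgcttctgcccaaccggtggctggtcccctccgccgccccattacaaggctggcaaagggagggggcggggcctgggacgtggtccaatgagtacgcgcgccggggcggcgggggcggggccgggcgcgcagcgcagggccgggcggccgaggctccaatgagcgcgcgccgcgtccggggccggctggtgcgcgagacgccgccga
CHAC1: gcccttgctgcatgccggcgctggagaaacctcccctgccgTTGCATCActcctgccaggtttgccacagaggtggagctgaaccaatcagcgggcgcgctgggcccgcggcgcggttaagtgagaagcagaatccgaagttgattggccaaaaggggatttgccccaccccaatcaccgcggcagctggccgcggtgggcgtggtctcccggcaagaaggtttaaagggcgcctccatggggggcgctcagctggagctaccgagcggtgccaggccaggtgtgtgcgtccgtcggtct
Holders of the same motif did not share a value. With hsa-miR-205-5p, the 7 ERSE holders ran from −1.76 (PDIA6) to 0.77 (XBP1) against the scrambled control, with PDIA6 called lower, where 7.98% of all genes were, and HSP90B1 and XBP1 passing above 0, where 9.81% were. The 3 tested UPRE holders ran from −1.40 (HYOU1) to 0.04 (SSR3). Those of the ATF4 site were at 1.80 (CHAC1, called higher) and 0.34 (HERPUD1, not passed).

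Among the chaperones, HYOU1 was the member called, and it was lower with hsa-miR-205-5p. Against the scrambled control this is 9.09% of the 11 chaperone genes, where 7.98% of all genes were lower. HYOU1, a large Hsp70-type chaperone of the ER lumen, measured −0.13 and −0.05 on the hsa-miR-205-5p arrays, 1.80 and 2.09 on the hsa-miR-214-3p arrays and 0.89 and 1.72 on the scrambled arrays. Both hsa-miR-205-5p arrays lay below all other arrays, while scrambled replicate 2 lay close to the hsa-miR-214-3p arrays and scrambled replicate 1 between. This is a log2 fold change of −1.40 (SE 0.31, adjusted p = 0.0342) against the scrambled control, or 2.63-fold lower. Against hsa-miR-214-3p it was −2.04 (SE 0.31, adjusted p = 0.00926), or 4.10-fold lower. The hsa-miR-214-3p arrays stood at 0.64 above the control mean, which did not pass (adjusted p = 0.286). With normexp the change against the scrambled control was −0.93, under the 2-fold limit. That call also ended without scrambled replicate 2 (−0.98), without either hsa-miR-205-5p array (−1.36 and −1.44) and without either hsa-miR-214-3p array (−1.40). The call against hsa-miR-214-3p ended without either array of that group (−2.18 and −1.89).

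HSPA5, the main ER Hsp70 chaperone, whose transcript is a standard marker of the unfolded protein response, measured 5.19 and 5.17 with hsa-miR-205-5p, 4.96 and 5.00 with hsa-miR-214-3p and 4.79 and 4.56 with the scrambled control. The groups do not overlap and both precursors lie above the control, but the steps are small. The log2 fold change was 0.51 (SE 0.16, adjusted p = 0.0833) for hsa-miR-205-5p and 0.31 (SE 0.16, adjusted p = 0.322) for hsa-miR-214-3p, and neither passed. HSP90B1, the ER member of the Hsp90 family, measured 8.79 and 8.82 with hsa-miR-205-5p, 8.51 and 8.50 with hsa-miR-214-3p and 8.04 and 8.06 with the scrambled control. On this brighter probe the arrays of each group lie within 0.03 of each other and the groups are apart in the same order as for HSPA5. HSP90B1 rose with hsa-miR-205-5p by 0.75 (SE 0.15, adjusted p = 0.0253), short of 2-fold, and for hsa-miR-214-3p the difference was 0.46 (adjusted p = 0.154). With median scaling the hsa-miR-205-5p value was 0.36 and did not pass. A dimmer HSP90B1 probe measured 1.87 and 1.53 with hsa-miR-205-5p, 1.93 and 1.97 with hsa-miR-214-3p and 1.05 and 1.79 with the scrambled control. On it the hsa-miR-205-5p and control arrays overlap and hsa-miR-214-3p lies highest, and the difference of hsa-miR-205-5p from the control, 0.28 (SE 0.29, adjusted p = 0.512), did not pass.

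CALR, a calcium-binding lectin chaperone of glycoproteins, measured 8.73 and 9.23 with hsa-miR-205-5p, 9.06 and 9.07 with hsa-miR-214-3p and 9.26 and 8.90 with the scrambled control. The arrays of the 3 groups overlap, and the difference of hsa-miR-205-5p from the control was −0.10 (95% interval −0.70 to 0.49). DNAJB9, a J-domain cochaperone induced by ER stress, measured 4.58 and 4.61 with hsa-miR-205-5p, 3.87 and 3.84 with hsa-miR-214-3p and 3.88 and 2.42 with the scrambled control. The precursor arrays are close together within each group, scrambled replicate 1 lies level with hsa-miR-214-3p, and scrambled replicate 2 is far lower. The difference of 1.44 (SE 0.47, adjusted p = 0.086) for hsa-miR-205-5p was over 2-fold and did not pass, but was called without scrambled replicate 1 (2.17). Of the other chaperone genes, SDF2L1, a partner of HSPA5 and its J-domain helpers, rose by 0.92 with hsa-miR-205-5p (adjusted p = 0.0256). Without scrambled replicate 1 the rise of SDF2L1 was 1.08, over 2-fold. MANF, DNAJB11, CRELD2, DNAJC3 and CANX ran from −0.00 to 0.56 with hsa-miR-205-5p and from −0.19 to 0.84 with hsa-miR-214-3p, and did not pass. Over the 11 chaperone genes the median for hsa-miR-205-5p was 0.51, staying above 0 under the other scalings (0.12 to 0.47). For hsa-miR-214-3p the median was 0.36 (0.20 to 0.39 under the other scalings).

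**Figure D2:**
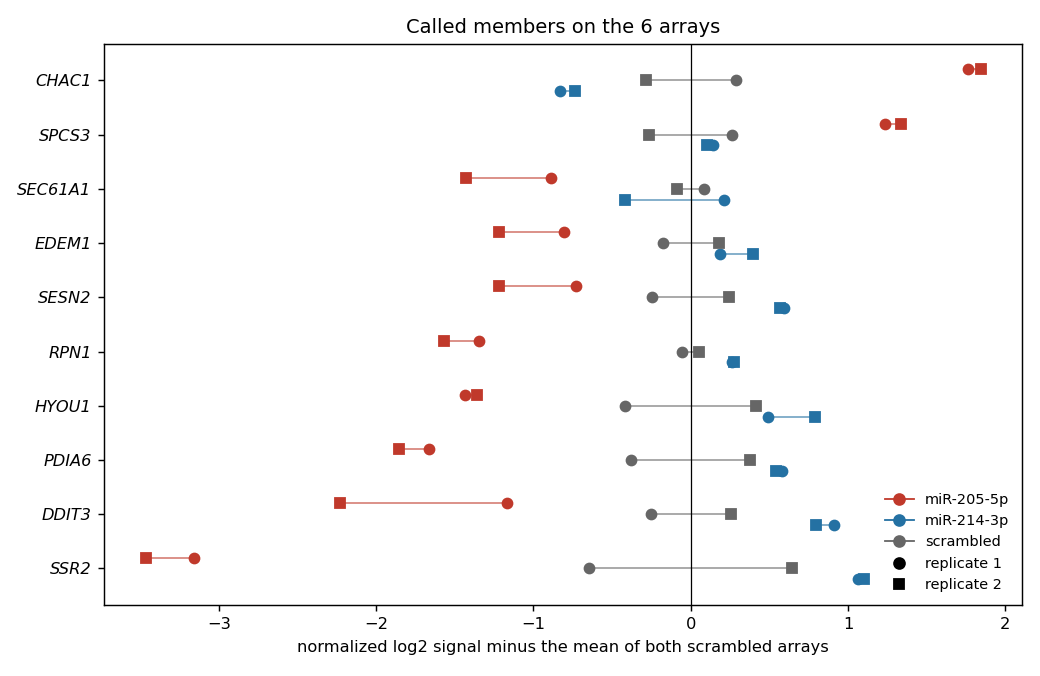
Normalized log2 signal of the 10 members called in any comparison, on each array, minus the mean of both scrambled arrays of that gene; circles are replicate 1, squares replicate 2, red hsa-miR-205-5p, blue hsa-miR-214-3p and grey the scrambled control. In the 8 lower members the red points lie below 0, in CHAC1 and SPCS3 above it, and the grey points are widest apart for SSR2.

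Of the disulfide isomerases, which form and reshuffle disulfide bonds in folding proteins, PDIA6 was called. Its lower call against the scrambled control is 25% of the 4 isomerase genes, where 7.98% of all genes were lower. PDIA6 measured 2.35 and 2.16 with hsa-miR-205-5p, 4.59 and 4.55 with hsa-miR-214-3p and 3.63 and 4.39 with the scrambled control. The hsa-miR-205-5p arrays lie far below the rest, and the hsa-miR-214-3p arrays lie just above the higher control array. PDIA6 fell by 1.76 with hsa-miR-205-5p (SE 0.28, adjusted p = 0.0158), or 3.38-fold. Against hsa-miR-214-3p the change was −2.32 (SE 0.28, adjusted p = 0.00551), or 4.99-fold lower, while hsa-miR-214-3p itself differed from the control by 0.56 (adjusted p = 0.298). The call against the scrambled control ended without either hsa-miR-205-5p array (−1.85 and −1.66) or hsa-miR-214-3p array (−1.76). Against hsa-miR-214-3p it ended without either array of that group (−2.30 and −2.34). P4HB, the archetypal isomerase, measured 7.31 and 6.42 with hsa-miR-205-5p, 6.98 and 6.77 with hsa-miR-214-3p and 6.89 and 6.10 with the scrambled control. The groups overlap, with replicates of 2 groups far apart, and the difference was 0.37 (SE 0.39, adjusted p = 0.519) for hsa-miR-205-5p. A dimmer P4HB probe measured 6.06 and 6.04, 6.74 and 6.77, and 6.84 and 6.68 on the arrays in the same order. On that probe the hsa-miR-205-5p arrays lie below all others, and it fell by 0.71 (SE 0.15, adjusted p = 0.0336), so the direction of P4HB depends on the probe. It also turns with normexp, to −0.89 for the brighter probe. PDIA4 and PDIA3 were at 0.44 and 0.28 with hsa-miR-205-5p and at 0.34 and 0.72 with hsa-miR-214-3p, and did not pass.

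Of the 3 sensor genes, ATF6 could be tested, and ERN1 and EIF2AK3 could not. ERN1, the sensor kinase and nuclease that splices XBP1 transcripts, and EIF2AK3, the kinase that slows translation under ER stress, were detected on none of the 6 arrays. ERN1 measured −2.31 and −2.23 with hsa-miR-205-5p, −2.79 and −4.10 with hsa-miR-214-3p and −3.60 and −3.24 with the scrambled control, and EIF2AK3 lay between −4.88 and −3.77 on the 6 arrays. No fold change is given for either. ATF6, the sensor that is cut to release a transcription factor, measured 4.65 and 4.69 with hsa-miR-205-5p, 4.13 and 4.11 with hsa-miR-214-3p and 4.26 and 4.21 with the scrambled control. Its replicates are close, and hsa-miR-205-5p lies above both other groups. The difference from the scrambled control was 0.44 (SE 0.15, adjusted p = 0.0945). Against hsa-miR-214-3p it passed at 0.55 (SE 0.15, adjusted p = 0.0402), short of 2-fold, and did not pass with normexp, quantile normalization or median scaling.

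XBP1, the transcription factor made active by splicing, measured 6.82 and 6.88 with hsa-miR-205-5p, 6.10 and 6.23 with hsa-miR-214-3p and 6.24 and 5.92 with the scrambled control. The hsa-miR-205-5p arrays lie above the rest, and the other groups overlap. XBP1 rose with hsa-miR-205-5p by 0.77 against the scrambled control (SE 0.18, adjusted p = 0.04) and by 0.69 against hsa-miR-214-3p (SE 0.18, adjusted p = 0.039). Median scaling gave 0.38 and 0.46, neither of which passed. Spliced and unspliced forms were not told apart. ATF4, the factor made when translation slows, measured 9.20 and 9.19 with hsa-miR-205-5p, 9.44 and 9.52 with hsa-miR-214-3p and 9.57 and 9.25 with the scrambled control. The control arrays span the hsa-miR-214-3p arrays, and the differences from the control were −0.21 (adjusted p = 0.412) and 0.07 (adjusted p = 0.846). ATF4 is controlled largely through translation, which transcript levels do not show.

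Of the 7 targets of the stress response, 14.3% were higher with hsa-miR-205-5p and 14.3% lower, against 4.78% and 7.98% of all genes. CHAC1 was higher, DDIT3 lower, and TRIB3 rose by less than 2-fold. CHAC1, an enzyme that breaks down glutathione and a known ATF4 target, measured 5.99 and 6.08 with hsa-miR-205-5p, 3.40 and 3.50 with hsa-miR-214-3p and 4.52 and 3.95 with the scrambled control. The hsa-miR-205-5p arrays lie above the control arrays and the hsa-miR-214-3p arrays below them, with no overlap. CHAC1 rose by 1.80 with hsa-miR-205-5p (SE 0.23, adjusted p = 0.0108), or 3.49-fold. The hsa-miR-214-3p difference of −0.78 (SE 0.23, adjusted p = 0.132) did not pass. Between the precursors the change was 2.59 (SE 0.23, adjusted p = 0.00397), or 6-fold. Without hsa-miR-205-5p replicate 2 the call against the scrambled control ended (1.76). A dimmer CHAC1 probe did not show the rise over the control: it measured 0.16 and 0.43 with hsa-miR-205-5p, −0.70 and −0.37 with hsa-miR-214-3p and 0.36 and 0.32 with the scrambled control. On it the hsa-miR-205-5p and control arrays overlap, at −0.04 (adjusted p = 0.9), and the change against hsa-miR-214-3p was 0.83 (adjusted p = 0.0285).

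DDIT3, the transcription factor tied to cell death under lasting stress, measured −1.16 and −2.22 with hsa-miR-205-5p, 0.93 and 0.81 with hsa-miR-214-3p and −0.24 and 0.27 with the scrambled control. The order is the reverse of that for CHAC1, with no overlap, and replicate 2 of hsa-miR-205-5p, which was the lowest, was not detected. DDIT3 fell by 1.70 with hsa-miR-205-5p (SE 0.39, adjusted p = 0.0368) against the scrambled control. The change against hsa-miR-214-3p was −2.56 (SE 0.39, adjusted p = 0.00928). With the undetected array set at its lowest detected signal the values were −1.31 and −2.17, or 2.48-fold and 4.49-fold lower. These folds are not lower bounds, since a spot above that signal can be undetected. On the same array the lowest detected signal was −1.44, and a dimmer PDIA3 probe was undetected at −1.01. For hsa-miR-214-3p against the scrambled control the DDIT3 change was 0.85 (adjusted p = 0.263). Normexp, which lifts dim signals, gave −0.49 against the scrambled control, which did not pass, and −0.93 against hsa-miR-214-3p. The call against the scrambled control ended without hsa-miR-205-5p replicate 2 (−1.17), scrambled replicate 2 (−1.45) or either hsa-miR-214-3p array (−1.70). Against hsa-miR-214-3p it ended without either array of that group (−2.50 and −2.61).

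SESN2, a stress-induced regulator of growth signalling, measured −0.05 and −0.54 with hsa-miR-205-5p, 1.27 and 1.24 with hsa-miR-214-3p and 0.43 and 0.92 with the scrambled control. It shows the same order of groups as DDIT3. SESN2 was called lower against hsa-miR-214-3p (−1.56, SE 0.26, adjusted p = 0.0113), and its −0.98 against the scrambled control did not pass (SE 0.26, adjusted p = 0.0521). Without scrambled replicate 1 its difference from the control was −1.22, over 2-fold. With normexp the change against hsa-miR-214-3p was −0.71, under 2-fold. The call ended without hsa-miR-205-5p replicate 2 (−1.31) and without either hsa-miR-214-3p array (−1.54 and −1.57).

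TRIB3, a pseudokinase induced by ATF4 and DDIT3, measured 7.38 and 7.33 with hsa-miR-205-5p, 6.43 and 6.54 with hsa-miR-214-3p and 6.34 and 6.54 with the scrambled control. The hsa-miR-205-5p arrays stand alone and the others overlap. TRIB3 rose by 0.91 against the scrambled control (SE 0.16, adjusted p = 0.0211) and by 0.87 against hsa-miR-214-3p (SE 0.16, adjusted p = 0.0158). With median scaling the values were 0.52 and 0.64 and did not pass. Without scrambled replicate 2 the rise over the control was 1.02, over 2-fold. ASNS, the asparagine synthetase induced by ATF4, measured 4.75 and 4.92 with hsa-miR-205-5p, 4.60 and 4.44 with hsa-miR-214-3p and 4.40 and 4.24 with the scrambled control. The groups follow each other without overlap, at 0.52 (SE 0.17, adjusted p = 0.0889) for hsa-miR-205-5p. DDIT4, an inhibitor of growth signalling, was at 0.26 with hsa-miR-205-5p and 0.68 with hsa-miR-214-3p, and PPP1R15A, which helps translation resume, at −0.48 and −0.04, and neither passed.

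In ERAD, the route by which misfolded proteins leave the ER for the proteasome, EDEM1 was called. Its lower call against the scrambled control is 14.3% of the 7 ERAD members, where 7.98% of all genes were lower. EDEM1, which trims and delivers misfolded glycoproteins, measured −1.46 and −1.87 with hsa-miR-205-5p, −0.46 and −0.26 with hsa-miR-214-3p and −0.83 and −0.48 with the scrambled control. The hsa-miR-205-5p arrays lie lowest, on a dim probe, and replicate 2 was not detected. EDEM1 fell by 1.01 against the scrambled control (SE 0.23, adjusted p = 0.0367), at the 2-fold limit, and by 1.30 against hsa-miR-214-3p (SE 0.23, adjusted p = 0.0132). With the undetected array set at its lowest detected signal the values were −0.79, under 2-fold, and −1.08. Normexp brought them to −0.20 and −0.21, and neither passed. The call against the scrambled control ended without either hsa-miR-205-5p array (−1.22 and −0.80), either hsa-miR-214-3p array (−1.01) or scrambled replicate 2 (−0.83). Against hsa-miR-214-3p it ended without either array of that group (−1.40 and −1.20) and without hsa-miR-205-5p replicate 2 (−1.10).

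SEL1L, the scaffold of the ERAD ubiquitin ligase, measured 1.30 and 0.34 with hsa-miR-205-5p, 2.15 and 1.40 with hsa-miR-214-3p and 2.21 and 1.61 with the scrambled control on its brighter probe. In each group replicate 2 is the lower array, and the difference of −1.09 for hsa-miR-205-5p did not pass (SE 0.44, adjusted p = 0.135). The dimmer SEL1L probe measured −0.00 and −0.25, 1.97 and 2.00, and 1.23 and 1.37 in the same order. On it the groups stand apart and the replicates are close. This probe was called lower against the scrambled control (−1.43, SE 0.17, adjusted p = 0.00955) and against hsa-miR-214-3p (−2.11, SE 0.17, adjusted p = 0.00383). SEL1L is not counted among the called members because its brighter probe stands for it. HERPUD1, an ERAD protein of the ER membrane and an early stress target, measured 6.25 and 5.81 with hsa-miR-205-5p, 5.63 and 5.13 with hsa-miR-214-3p and 5.74 and 5.63 with the scrambled control. The hsa-miR-205-5p arrays lie above the control arrays by less than their own spread, at 0.34 (SE 0.25, adjusted p = 0.363). SYVN1, the ubiquitin ligase itself, rose by 0.70 against hsa-miR-214-3p (adjusted p = 0.0359), and its 0.69 against the scrambled control did not pass. DERL1, DERL2 and DERL3, membrane proteins of the same route, ran from −0.15 to 0.00 with hsa-miR-205-5p and from −0.10 to 0.55 with hsa-miR-214-3p, and did not pass.

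The translocon held the largest difference of all members, in SSR2, a subunit of the translocon-associated protein complex. SSR2 measured 1.64 and 1.34 with hsa-miR-205-5p, 5.87 and 5.90 with hsa-miR-214-3p and 4.16 and 5.45 with the scrambled control. Both hsa-miR-205-5p arrays lie more than 2 units below every other array, and the control arrays are themselves 1.29 apart. SSR2 fell by 3.31 with hsa-miR-205-5p (SE 0.43, adjusted p = 0.0111), or 9.93-fold. Against hsa-miR-214-3p it fell by 4.39 (SE 0.43, adjusted p = 0.00411), or 21-fold. Without hsa-miR-205-5p replicate 2 the call against the scrambled control ended (−3.16). The hsa-miR-214-3p arrays were 1.08 above the control mean, which did not pass (SE 0.43, adjusted p = 0.217). SSR1, SSR3 and SSR4 encode the other subunits of the same complex. With hsa-miR-205-5p their brightest probes were at −0.02, 0.04 and −0.54 against the scrambled control and did not pass. The dimmest of 3 SSR1 probes was called lower (−1.25, adjusted p = 0.0139), as SSR2 was, while another was at 0.51 and did not pass. SSR4 fell by 0.80 against hsa-miR-214-3p (adjusted p = 0.0307).

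SEC61A1, the channel-forming subunit of the translocon, measured 3.59 and 3.04 with hsa-miR-205-5p, 4.68 and 4.05 with hsa-miR-214-3p and 4.56 and 4.39 with the scrambled control. Its hsa-miR-205-5p arrays lie below the rest, but the replicates of each precursor are over 0.5 apart. SEC61A1 fell by 1.16 against the scrambled control (SE 0.29, adjusted p = 0.049) and by 1.05 against hsa-miR-214-3p (SE 0.29, adjusted p = 0.0453). Both calls ended in each of the 6 fits that left out an array, with values from −1.43 to −0.89 against the scrambled control and from −1.37 to −0.74 against hsa-miR-214-3p. SEC61B and SEC61G, the small subunits of the same channel, did not fall: they were at 0.46 and 0.44 against the scrambled control and did not pass, and they rose by 0.60 (adjusted p = 0.0367) and 0.80 (adjusted p = 0.0379) against hsa-miR-214-3p. SEC63, which recruits HSPA5 to the channel, rose by 0.84 with hsa-miR-205-5p (adjusted p = 0.0371). Without scrambled replicate 2 the rise of SEC63 was 1.03, over 2-fold. TRAM1, which aids insertion of membrane proteins, was at 0.27, and SEC62, the partner of SEC63, was detected on scrambled replicate 2 only. Over the 9 tested translocon genes, the median for hsa-miR-205-5p was 0.04, which turned to −0.35 with median scaling and −0.07 with normexp.

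The signal peptidase, which cuts signal peptides from entering chains, had 1 called subunit of 4. That higher call is 25% of the subunits, against 4.78% of all genes relative to the scrambled control and 9.18% relative to hsa-miR-214-3p. SPCS3 measured 6.91 and 7.01 with hsa-miR-205-5p, 5.82 and 5.78 with hsa-miR-214-3p and 5.94 and 5.41 with the scrambled control. The hsa-miR-205-5p arrays lie about 1 unit above the rest, and the other groups overlap. SPCS3 rose by 1.29 against the scrambled control (SE 0.22, adjusted p = 0.0189), or 2.44-fold, and by 1.16 against hsa-miR-214-3p (SE 0.22, adjusted p = 0.0159), or 2.24-fold. With median scaling and with normexp both changes were between 0.90 and 0.94, under 2-fold. Both calls ended in each fit that left out 1 of the 4 precursor arrays, with values from 1.24 to 1.34 against the scrambled control and from 1.11 to 1.21 against hsa-miR-214-3p. SPCS1, a small subunit that is not part of the catalytic site, measured 6.40 and 6.38 with hsa-miR-205-5p, 6.66 and 6.62 with hsa-miR-214-3p and 6.55 and 6.77 with the scrambled control. Here the hsa-miR-205-5p arrays lie lowest, at −0.27 (SE 0.16, adjusted p = 0.272). SPCS2, another accessory subunit, was at 0.19 against the scrambled control and rose by 0.84 against hsa-miR-214-3p (adjusted p = 0.0134), which itself lay at −0.65 from the control (adjusted p = 0.0848). SEC11A, a catalytic subunit, was at 0.35 and 0.18 and did not pass.

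In the oligosaccharyltransferase, which adds sugar trees to new chains, RPN1 was called. Its lower call against the scrambled control is 20% of the 5 subunits, where 7.98% of all genes were lower. RPN1, a subunit that holds the complex at the translocon, measured 1.63 and 1.41 with hsa-miR-205-5p, 3.24 and 3.25 with hsa-miR-214-3p and 2.92 and 3.03 with the scrambled control. The arrays of each group are close together and the hsa-miR-205-5p arrays lie far below the rest. RPN1 fell by 1.46 against the scrambled control (SE 0.16, adjusted p = 0.00914), or 2.75-fold, and by 1.73 against hsa-miR-214-3p (SE 0.16, adjusted p = 0.00401), or 3.31-fold. The first call ended without hsa-miR-205-5p replicate 2 (−1.35) and the second without hsa-miR-214-3p replicate 2 (−1.72). DDOST, a core subunit, fell by 0.99 against hsa-miR-214-3p (adjusted p = 0.0171), and its −0.57 against the scrambled control did not pass. RPN2, OSTC and STT3A ran from −0.33 to 0.10 with hsa-miR-205-5p and did not pass. Over the 5 subunits the median was −0.33 for hsa-miR-205-5p and lay between −0.72 and −0.37 under the other scalings, but was −0.08 without scrambled replicate 2.

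Several tested probes were on hand for 8 members, and the probes of a member did not always have the same sign. For hsa-miR-205-5p against the scrambled control, 4 of these 8 members had probes of opposite sign, and in 3 the probes were more than 2-fold apart. Opposite signs include values that did not pass, such as −0.08 and 0.37 for RPN2. The 3 probes of SSR1 were at −0.02, 0.51 and −1.25, the dimmest being called lower (adjusted p = 0.0139). For CHAC1 the probes were at 1.80 and −0.04. Against hsa-miR-214-3p, 5 of the 8 members had probes of opposite sign, and those of SSR1 ran from −0.97 to 1.32. Among these members was PDIA3, whose dimmer probe was not detected on replicate 2 of either precursor. Which transcripts each probe reads was not analysed here.

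**Figure D3:**
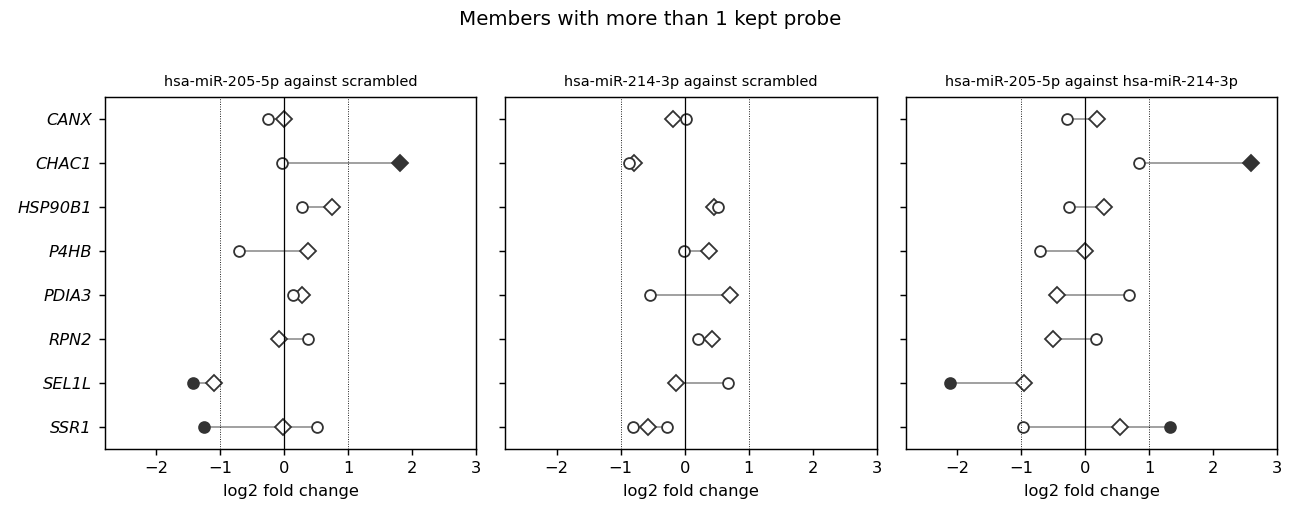
Log2 fold change of every tested probe of the 8 members with several, in the 3 comparisons; the diamond is the probe with the highest mean signal, which stands for the gene, circles are the other probes, and filled marks are called. The probes of CHAC1 and SSR1 lie far apart in the panels with hsa-miR-205-5p.

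Replicates differed most in the control. Over the 50 tested members the median absolute difference between replicates was 0.12 with hsa-miR-205-5p, 0.06 with hsa-miR-214-3p and 0.32 with the scrambled control, against 0.17, 0.11 and 0.34 over all genes. Replicates of DERL1, DNAJB9, SSR2 and PDIA3 were more than 2-fold apart in the control. With hsa-miR-205-5p that held for DDIT3, and with hsa-miR-214-3p for 0 members. Of the 8 members called lower with hsa-miR-205-5p in either comparison, 7 had scrambled replicate 1 below scrambled replicate 2, on the side of the hsa-miR-205-5p arrays, by 0.11 for RPN1 to 1.29 for SSR2. SEC61A1 was the other one. The median of scrambled replicate 1 minus scrambled replicate 2 was −0.01 over the tested members and 0.14 over all genes. The part of this difference in the results was not tested.

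**Figure D4:**
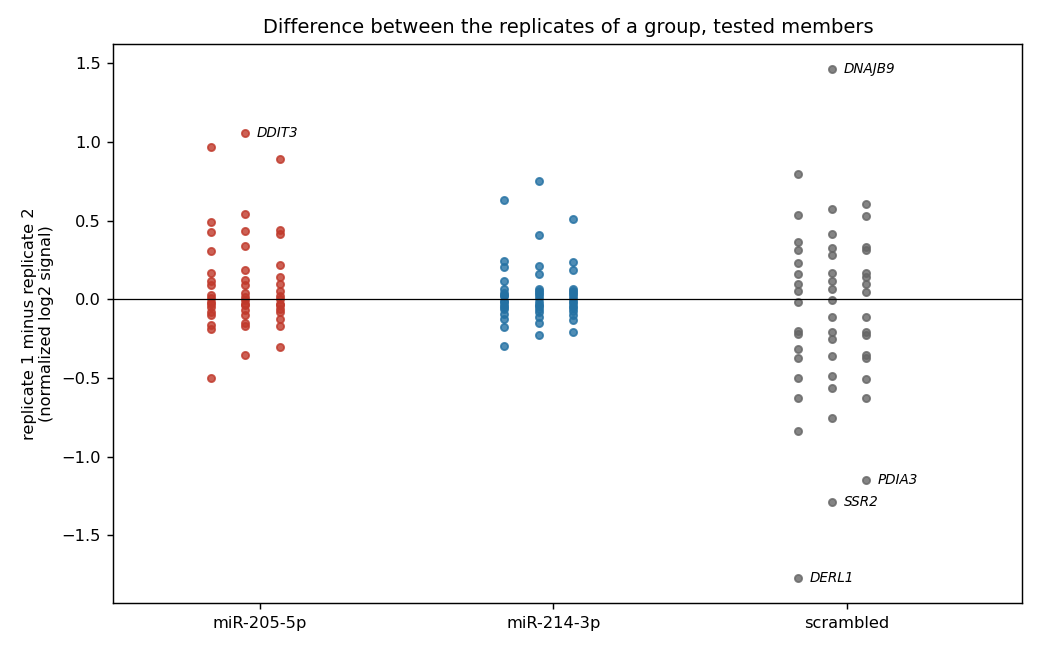
Replicate 1 minus replicate 2 in normalized log2 signal of each tested member, by group, with the genes beyond a 2-fold difference named. The points of the scrambled control spread most, from DERL1 at −1.77 to DNAJB9 at 1.46, and those of hsa-miR-214-3p least.

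The calls did not all have the same footing. Each was followed over 18 other settings that could end it, which leave out the looser thresholds and the choice of probe and include leaving out each array. The fit on the arrays compared alone and those without an array of the group not compared came to the same fit. Their shared outcome therefore counts more than once in each tally. Against the scrambled control, SSR2 kept its call in 16, and CHAC1 and RPN1 in 15 each. PDIA6 kept it in 11, SPCS3 in 9, and HYOU1 and SEC61A1 in 8 each. Of 17 settings that gave a value, DDIT3 kept its call in 7 and EDEM1 in 5. Against hsa-miR-214-3p, SSR2 and CHAC1 kept their calls in all 18, RPN1 in 17, and HYOU1 and PDIA6 in 16 each. SESN2 kept it in 12, SPCS3 in 9 and SEC61A1 in 7, and of 17 settings DDIT3 kept it in 13 and EDEM1 in 11. The dimmer probe of CHAC1, which did not show its rise over the control, is not part of this tally.

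Other genes of the same pathways were read from 4 further lists. Every call given below for hsa-miR-214-3p against the scrambled control ended with the replicate block, in the fit on the arrays compared alone, and on leaving out any array but scrambled replicate 2, since limma then called 0% of all genes. Of 29 tested genes for ER folding and redox, 3 were lower and 3 higher with hsa-miR-205-5p than with the scrambled control, or 10.3% and 10.3% against 7.98% and 4.78% of all genes, at a median of 0.29. PPIB, an ER prolyl isomerase, fell by 2.75 (SE 0.34, adjusted p = 0.0106) and SELENOS, a selenoprotein of the ERAD machinery, by 1.42 (SE 0.22, adjusted p = 0.0148). PDIA5, a disulfide isomerase, rose by 1.49 (SE 0.18, adjusted p = 0.0103) and SIL1, a nucleotide exchange factor for HSPA5, by 1.35 (SE 0.20, adjusted p = 0.0143). With hsa-miR-214-3p the only call was PDIA5, higher at 1.15 (SE 0.18, adjusted p = 0.0449), which is 3.45% of the list against 1.09% of all genes. Between the precursors, 5 were lower and 2 higher (17.2% and 6.9% against 11.3% and 9.18%), led by SDF2 at −3.05 and PPIB at −2.82, and by UGGT1, the glycoprotein folding sensor, at 1.51 and MOGS, which trims sugars, at 1.21.

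Of 33 tested genes of stress sensing and the integrated stress response, 3 were called with hsa-miR-205-5p, all of them higher (9.09% against 4.78% of all genes, where 7.98% were lower), and the median was 0.26. EIF2S1, the initiation factor subunit on which stress kinases act, rose by 1.70 (SE 0.21, adjusted p = 0.0103) and VLDLR, a lipoprotein receptor, by 1.23 (SE 0.29, adjusted p = 0.0394). With hsa-miR-214-3p also 3 were called, all higher (9.09% against 1.09%), led by JDP2, a repressor of the AP-1 family, at 1.59 (SE 0.17, adjusted p = 0.0266) and EIF2S1 at 1.40 (SE 0.21, adjusted p = 0.0405). Between the precursors, 3 were lower and 2 higher (9.09% and 6.06% against 11.3% and 9.18%). NUPR1, a stress-induced chromatin protein, was at −1.46 and ATF5, a relative of ATF4, at −1.33, while VEGFA, the angiogenic factor, was at 1.76 and WFS1, an ER membrane protein, at 1.45.

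Of 23 tested ERAD genes, 4 were called with hsa-miR-205-5p, all of them lower (17.4% against 7.98% of all genes, where 4.78% were higher), and the median was 0.09. AUP1, which brings a ubiquitin-conjugating enzyme to the ER, fell by 1.78 (SE 0.22, adjusted p = 0.0105). RNF185, a ubiquitin ligase, counts as lower both here and against hsa-miR-214-3p, but it was detected on neither hsa-miR-205-5p array and on 1 scrambled array. With the hsa-miR-205-5p arrays set at their lowest detected signals, the ratio of the scrambled control to hsa-miR-205-5p for RNF185 was 0.808. The undetected scrambled array kept its measured signal in this ratio. The direction of RNF185 there rests on undetected signals as its size does, and 3 lower genes remain without it. Set in the same way, RNF185 was 1.51-fold lower than with hsa-miR-214-3p, under the 2-fold limit and not a lower bound. With hsa-miR-214-3p the only call was the ligase MARCHF6, lower at −1.15 (SE 0.19, adjusted p = 0.0496), or 4.35% against 2.03%. Between the precursors 3 were lower and 2 higher (13% and 8.7% against 11.3% and 9.18%, or 8.7% lower without RNF185), among them UBE2G2, the conjugating enzyme that AUP1 binds, at −2.34, MARCHF6 at 1.64 and TMUB1, a membrane partner of SYVN1, at 1.60.

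Of 34 tested genes for targeting, insertion and glycosylation, 4 were lower and 2 higher with hsa-miR-205-5p (11.8% and 5.88% against 7.98% and 4.78% of all genes), at a median of 0.09. SRP68, a protein of the signal recognition particle, fell by 2.15 (SE 0.23, adjusted p = 0.00879) and NOMO1, a translocon-associated membrane protein, by 1.70 (SE 0.15, adjusted p = 0.00799). EMC10, a subunit of the ER membrane insertase, rose by 2.49 (SE 0.27, adjusted p = 0.00879) and SEC11C, a catalytic subunit of signal peptidase, by 1.27 (SE 0.26, adjusted p = 0.0288). With hsa-miR-214-3p, 3 were lower and 1 higher (8.82% and 2.94% against 2.03% and 1.09%): TMEM258, an oligosaccharyltransferase subunit, at −2.08 (SE 0.17, adjusted p = 0.0251), NOMO1 at −1.49 (SE 0.15, adjusted p = 0.0263), TMEM147, a membrane protein at the translocon, and EMC10 at 1.79 (SE 0.27, adjusted p = 0.0405). This list holds the largest differences from the control that hsa-miR-214-3p gave among these pathway genes. Between the precursors, 4 were lower and 3 higher (11.8% and 8.82% against 11.3% and 9.18%), with SRP68 at −2.52, TMEM258 at 2.68 and TMEM147 at 1.29. The lower counts include SRP54, of the signal recognition particle, against both other groups, and SEC61A2, a second channel subunit gene, against hsa-miR-214-3p. Neither was detected on a hsa-miR-205-5p array, so their 2-fold size rests on undetected signals. Without such genes the lower calls are 3 against the scrambled control (8.82%) and 2 against hsa-miR-214-3p (5.88%). Set at the lowest detected signals, SRP54 was 1.03-fold lower than in the scrambled control and 1.34-fold lower than with hsa-miR-214-3p. SEC61A2 was 1.41-fold lower than with hsa-miR-214-3p. These folds are not lower bounds, since undetected spots can lie above the lowest detected signal.

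The cell line was checked against marker genes. All 8 genes that MDA-MB-231 cells are known to express strongly were detected on all 6 arrays, with LGALS1 the most abundant and a summed linear signal of 1410 to 1700. Of 7 genes known to be low in the line, ESR1, PGR and KRT20 were detected on no array, while ERBB2, GATA3, CDH1 and EPCAM were on all 6. The summed signal of these 7 was 42.1 and 40.4 with hsa-miR-205-5p, 16.9 and 18.0 with hsa-miR-214-3p and 22.6 and 21.7 with the scrambled control, with ERBB2 the most abundant. CDH1, the epithelial cadherin, rose by 1.96 with hsa-miR-205-5p (adjusted p = 0.00799) and EPCAM by 2.40 (adjusted p = 0.00879). Of 5 blood and endothelial markers, CD3E, HBB and VWF were detected on no array, PTPRC on 1 hsa-miR-205-5p and 1 scrambled array, and PECAM1 on both scrambled arrays and 1 hsa-miR-214-3p array. Their summed signal lay between 0.843 and 1.25. The part of these marker genes in the results was not tested.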

How the data were processed

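The scanner output that the authors deposited for the 6 arrays comes from Agilent Feature Extraction 11.0 and holds for each spot a linear, background-subtracted intensity. A second deposited table holds log2 values (50739 probes, 50599 of them matched). Its columns all had a median of 3.485 and correlated at 0.9968 to 0.9997 with the scanner's log2 signal. The scale is log2. The study's methods name the GeneSpring software in describing how raw data were normalized, and the procedure is not given in the sources used here. Control and outlier spots were left out (245 to 463 outliers per array), spots of a probe were averaged, log2 was taken and each array's 75th percentile subtracted. Of 50599 probes, 18464 were kept, with 14712 detected on every array. The array files give accessions; 30275 probes were matched to symbols in the RefSeq table of GRCh38.p14, as were 83.3% of those kept. The array's annotation uses another build, so the table served for names only.

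limma's lmFit and eBayes (R 4.3.3, limma 3.58.1, data.table in version 1.17.8) gave 3 residual and 2.47 prior degrees of freedom and were tested on simulated arrays. That test missed part of the changes put in, fell short of its first pass limit, and passed after the limit was lowered. Plots used Python 3.11.15 and matplotlib 3.10.9. Values on every array are given for the members called in any comparison and for a set of members picked by role, and fold changes of the other lists for at most 2 called genes each way per comparison, those with the largest change, besides genes named for undetected signals. The members and lists were chosen with earlier results of these data known. TXNDC11, ERO1A, ERP44 and BAG6 of the other lists were not matched to a probe.

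Alternatives were normexp (offset 50), quantile and median scaling, the 75th percentile of detected probes alone, the deposited log2 table, a looser and a stricter filter, a fit on the compared groups alone, a block for replicate number, limma's trend with robust spread, the methods' t-test, unadjusted p, no fold limit, other choices of probe, and leaving out each array. The planned description of protein ends was not done.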

Additional observations from a re-analysis of the deposited data

How the results depend on the processing

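Counts are of called members, lower and higher, and the cause of each change below was not tested unless given. For hsa-miR-205-5p against the scrambled control (7 and 2), normexp gave 4 and 1 (all genes 5.17% and 1.11%), no filter 1 and 0 (0.947% and 0.524%), only the arrays compared 2 and 1 (3.38% and 1.77%), the methods' t-test 3 and 2 by its p (6% and 4% of the members against 5.78% and 3.74% of all genes) and 0 and 0 after Benjamini-Hochberg (0% of all genes), median scaling 8 and 1 (16% and 2% of the members against 15.7% and 1.77% of all genes), the mean of kept probes 8 and 1 (all genes 8.54% and 4.36%) and the dimmest kept probe 9 and 1 (8.94% and 4.31%), where CHAC1 went to −0.0392. With no fold limit they were 7 and 7. Leaving out 1 array gave 0 to 7 lower and 0 to 4 higher (all genes 0% to 11.7% and 0% to 8.89%). For hsa-miR-214-3p against the scrambled control (0 and 0 by limma), 1 was higher at an unadjusted p under 0.05 and 2-fold, 0 by the methods' t-test, and leaving out 1 array gave 0 to 1 lower and 0 to 3 higher (all genes 0% to 4.14% and 0% to 5.47%). For hsa-miR-205-5p against hsa-miR-214-3p (8 and 2), normexp gave 5 and 1 (all genes 5.45% and 3.47%), no filter 5 and 1 (3.34% and 2.4%), the methods' t-test after Benjamini-Hochberg 4 and 2 (7.88% and 5.51%, against 8% and 4% of the members), quantile normalization (11.6% and 8.54%), median scaling (15% and 5.33%) and the authors' log2 values (11.6% and 8.35%) 10 and 1 each, and the dimmest kept probe 9 and 1 (12.7% and 8.4%). With no fold limit they were 10 and 9. Leaving out 1 array gave 1 to 7 lower and 1 to 2 higher (all genes 1.55% to 12.5% and 1.17% to 10%). Such fits take the spread of the remaining single array from the other groups.

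Same-numbered arrays of different groups had correlations of 0.1089, 0.0082 and −0.0514 between their deviations over probes. With 2 arrays per group such correlations cannot tell whether the numbers pair the samples, and the labels do not say. With the replicate number as a block the counts were 6 and 2, 0 and 0, and 8 and 2 (all genes 7.04% and 4.16%, 0% and 0%, and 10.8% and 9.09%). With a single slide there was no slide block to fit, and normexp used the median spot signal. Of the counts of called members under other settings, 24 of 44 differed by more than 1.5 times for hsa-miR-205-5p against the scrambled control and 17 of 44 between the precursors. For hsa-miR-214-3p, 3 of 44 did, the rest being 0 as before. Settings that came to the same fit count separately here. A single gene counted as the same under another setting if its call stayed and any turn of sign lay within its replicate spread. A role median counted as the same if it shifted by less than its replicate spread, whatever its sign. By this rule 1868 values stayed the same, 109 lost a call and 21 gained one. A further 107 moved beyond the spread without a change of call, for genes with a turn of sign, and 1 value with a call reversed. Dim probes limit EDEM1 and DDIT3, and low signal left ERN1, EIF2AK3 and SEC62 without a test.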

Other observations

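Heat shock genes of the cytosol and mitochondria, the chaperone system outside the ER, were read from a further list of 24 genes, 23 of them tested. With hsa-miR-205-5p, 4 were lower and 3 higher than with the scrambled control, or 17.4% and 13% against 7.98% and 4.78% of all genes. HSP90AB1, the constitutive cytosolic Hsp90, fell by 2.38 (SE 0.35, adjusted p = 0.0137) and STIP1, which links Hsp70 to Hsp90, by 2.09 (SE 0.24, adjusted p = 0.00924). HSPA1A and HSPA1B, the stress-induced cytosolic Hsp70 genes, rose by 1.31 (SE 0.19, adjusted p = 0.0136) and 1.03 (SE 0.15, adjusted p = 0.0137). These 2 genes are near-identical copies, so their probes may read both transcripts. With hsa-miR-214-3p, limma called 0 lower and 0 higher, against 2.03% and 1.09% of all genes. At an unadjusted p under 0.05 it put 5 below 0, 1 of them by at least 2-fold, and 0 above, against 13.4% and 10.8% of all genes, and the methods' t-test put 3 below and 1 above, against 9.5% and 7.99%. Between the precursors 6 were lower and 5 higher, or 26.1% and 21.7% against 11.3% and 9.18% of all genes. BAG3, a cochaperone among the lower genes, was not detected on hsa-miR-205-5p replicate 2, and without it 5 were lower (21.7%). The largest were HSP90AB1 at −2.88 and STIP1 at −2.58, and HSPH1, an Hsp70 helper, at 1.46 and HSPA1B at 1.43. The median over the list was 0.09 for hsa-miR-205-5p and −0.07 for hsa-miR-214-3p.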
